A study of Mus musculus with 18 samples.

Results

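The response of bone marrow-derived macrophages (BMDMs) labelled HDAC3-/- to apoptotic cells (ACs) was described by comparing the 3 libraries titled HDAC3 KO-AC with the 3 titled HDAC3 KO-NO Treatment. These are 6 of the 18 libraries of the study, chosen by their titles alone. The study asked how HDAC3, a histone deacetylase, affects efferocytosis, and it also sequenced macrophages given non-apoptotic cells (NACs) and macrophages labelled wild type, with 3 libraries in each of 6 groups. Both groups compared here carry the same alleles, since in these mice Cre from the lysozyme 2 locus, active in myeloid cells, deletes the floxed exon 7 of Hdac3. Both were grown from femoral marrow in L929-conditioned medium. Apoptosis was induced in K562, a leukemia line of human origin, by 15 min of UVB, and these ACs were rested for 2 h. They were left on the macrophages for 45 min, suspended cells were washed off, and RNA was taken 5 h later. For the NACs the irradiation was left out. Untreated macrophages received no K562 cells, so an effect of ACs in this comparison cannot be told apart from an effect of adding any human cells, and the comparison with NACs is given beside it.

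Efferocytosis is the clearance of dying cells by phagocytes. Receptors such as MerTK and Axl bind exposed phosphatidylserine through bridging proteins such as Gas6 and protein S, while CD36 and integrins containing the αv chain take part in recognition. The engulfed corpse passes through a Rab7-positive phagosome to the lysosome, and its cholesterol can activate the liver X receptors (LXRs), which induce the exporters ABCA1 and ABCG1.

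CPM (each gene's count brought to the same library total after TMM scaling, a correction for composition) is the unit of every level. Total counts were 4704491, 26421267 and 25379897 in the untreated libraries and 22664522, 21505343 and 18495507 in the libraries with ACs. Replicates are named by the numbers in the sample titles. Untreated replicate 1 was the shallowest library of the series. Pearson correlations across genes on log2 CPM were 0.887 and 0.861 between untreated replicate 1 and the other two untreated libraries, which correlated at 0.964 with each other. AC replicate 3 correlated at 0.971 with untreated replicate 3 and 0.964 with untreated replicate 2, at 0.847 with untreated replicate 1, and at 0.953 and 0.913 with AC replicates 1 and 2. Its 2 highest correlations within the 6 libraries were thus with untreated libraries.

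**Figure D1:**
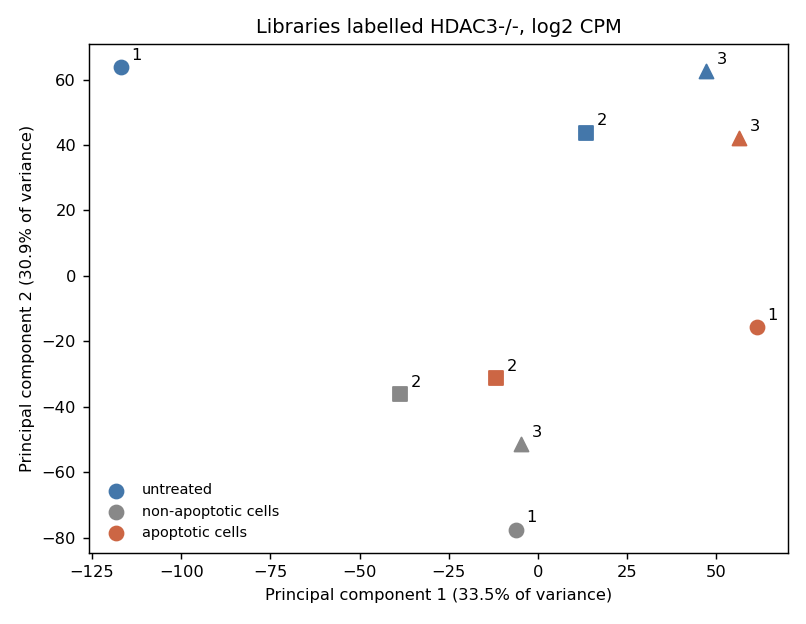
Principal components of the 9 libraries labelled HDAC3-/- on log2 CPM. Each point is a library, coloured by treatment and numbered by replicate, and the axes give the first component (33.5% of the variance) and the second (30.9%). AC replicate 3 (second component 42) lies with the untreated libraries (43.8 to 63.8), and AC replicates 1 and 2 (-15.6 and -31.2) lie towards the libraries with NACs.

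Hdac3, the targeted gene, was measured first because it checks the labels. It had 34.3, 9.72 and 61.4 CPM in the untreated libraries and 38.2, 9.79 and 15.7 CPM in those with ACs. The groups overlapped, and the log2 fold change was -0.73 with an SE of 0.653 (adjusted p = 0.595). On a common scale over the series, Hdac3 ranged from 4.66 to 74.6 CPM in the 9 libraries labelled HDAC3-/- and from 3.38 to 48.8 CPM in the 9 labelled wild type, so its level did not separate the labels. The counts cover the whole gene, and exon 7 was not analysed on its own. For this reason every result is described as that of libraries labelled HDAC3-/-.

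The labelled cell type was checked against its markers. All 12 macrophage markers were tested, and Csf1r, the receptor for the growth factor CSF1, had 1040, 3420 and 5590 CPM untreated and 3300, 2020 and 4980 CPM with ACs. The summed level of the 12 markers was 10900 to 20000 CPM untreated and 17000 to 18900 CPM with ACs. Markers of B cells, T and NK cells, dendritic cells, erythroid cells, and mast cells and basophils were low, with summed levels of at most 60.4 CPM in any of the 6 libraries. Among the erythroid genes, Slc4a1, Epb42 and Hemgn had 0 counts in all 6 libraries, which allows up to 3 counts each. Hba-a1, a hemoglobin gene of the same list, had 7, 26 and 5 counts untreated and 54, 1 and 196 counts with ACs. Its log2 fold change was 2.35 with an SE of 1.39 (adjusted p = 0.439).

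In the comparison of ACs with no treatment, edgeR's quasi-likelihood test called 0 of 12136 genes (0%) at an adjusted p under 0.05. The smallest adjusted p was 0.311, and 1761 genes (14.5%) had an unadjusted p under 0.05, of which 1146 (9.44%) had a log2 fold change above 0 and 615 (5.07%) below 0. This split depended on the scaling. It was 825 above and 842 below 0 with the size factors of DESeq2, 1715 and 371 with library totals, and 563 and 803 after trends with length and GC content were removed by an offset. Without AC replicate 1 the numbers were 203 and 137. The test of DESeq2 called 13 genes among the 1203 to which it gave an adjusted p, and 3 genes without its independent filter. limma-voom called 0. The groups did not overlap for 2697 genes (22.2%), with ACs higher for 1450 (11.9%) and lower for 1247 (10.3%). The median log2 fold change of all genes was 0.10, and the median standard error was 0.562. Of all 12136 genes, 6593 had a log2 fold change above 0 and 5543 below 0, the background for such counts in each list. No gene named in this comparison passed the test, and the values below are levels and differences with their errors.

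Single libraries moved the number of calls and the medians of gene lists. Without untreated replicate 1 the test called 16 genes, without untreated replicate 2 it called 3, and without AC replicate 2 it called 8. With any of the other 3 libraries left out it called 0. The median log2 fold change took both signs for 15 of the 26 function lists over the fits with all libraries and with each library left out. The genes called without untreated replicate 1 included Cldn18 and Sec14l3, which are known from lung epithelium, Eln, which encodes elastin, and Myh6, a heart muscle myosin. They were chosen for naming after these calls were seen. Counts of such genes were therefore read in every library. Sftpc, which encodes surfactant protein C of the alveolar epithelium, had 65, 80 and 8 counts in the untreated libraries and 609, 4 and 2346 counts with ACs. Mfap4, a matrix protein gene, had 3, 14 and 4 counts untreated and 85, 0 and 370 counts with ACs. Myh6 had 1, 2 and 3 counts untreated and 19, 0 and 96 with ACs. By counts, these 3 genes were highest in AC replicates 3 and 1 among the 6 libraries. Scaled for depth, Sftpc had 14.5, 3.49 and 0.327 CPM untreated and 22.5, 0.163 and 139 CPM with ACs. For this gene the shallow untreated replicate 1 thus lay near AC replicate 1. Sec14l3, Cldn18 and Eln each had 0 counts in untreated replicate 1. They had 39, 22 and 26 counts in AC replicate 1, 1, 0 and 0 in AC replicate 2, and 123, 57 and 55 in AC replicate 3. Outside this comparison, wild type untreated replicate 1 (630 Sftpc counts) and wild type AC replicate 3 (3390) had the highest Sftpc counts, and the other 14 libraries of the series had 4 to 110. Sftpc was also tested, with a log2 fold change of 3.23 with an SE of 2.33 (adjusted p = 0.545). The part of RNA from other tissue in the other results was not tested.

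The genes nearest to the threshold are named next, the 5 in each direction with the smallest unadjusted p. All of these genes had separated groups, and some had low levels. Rpl4, a ribosomal protein of the large subunit, had 97.4, 111 and 139 CPM untreated and 491, 660 and 188 CPM with ACs. Its log2 fold change was 1.95 with an SE of 0.510 (adjusted p = 0.311), and AC replicate 3 was the closest to the untreated libraries. Ribosomal protein genes have processed pseudogenes that can share reads, so this level is uncertain. Anapc4, a subunit of the anaphase-promoting complex, had 2.45, 4.27 and 4.09 CPM untreated and 25.2, 23.1 and 7.18 CPM with ACs, a log2 fold change of 2.33 (SE 0.585). Epas1, the hypoxia-inducible factor HIF-2α, had 0.669, 2.22 and 0.941 CPM untreated and 6.54, 5.49 and 10.1 CPM with ACs, a log2 fold change of 2.45 (SE 0.624). The last 2 of these 5 genes were Lima1, which binds actin (log2 fold change 2.17, SE 0.573), and Coa5, an assembly factor of cytochrome c oxidase (1.93, SE 0.516). In 4 of the 5 genes, Epas1 being the exception, AC replicate 3 was the lowest of the libraries with ACs.

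In the other direction, Dcxr, which reduces L-xylulose and dicarbonyl compounds, had 387, 147 and 195 CPM untreated and 48.2, 69.3 and 82.5 CPM with ACs. The log2 fold change was -1.87 with an SE of 0.499 (adjusted p = 0.311). AI480526, a long noncoding RNA gene, had 48.4, 7.32 and 5.65 CPM untreated and 1.15, 1.87 and 2.97 CPM with ACs (log2 fold change -3.34, SE 0.819). Gm7008 (-3.78), Zfp518a (-3.01) and 1700066B19Rik (-3.06) were lower in every library with ACs than in any untreated library. Untreated replicate 1 was the highest library for all 5 of these genes. Gm7008 is annotated as an antisense gene, and the strand setting of the counting is not given in the sources used here, so its reads cannot be told apart from those of an overlapping gene.

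**Figure D2:**
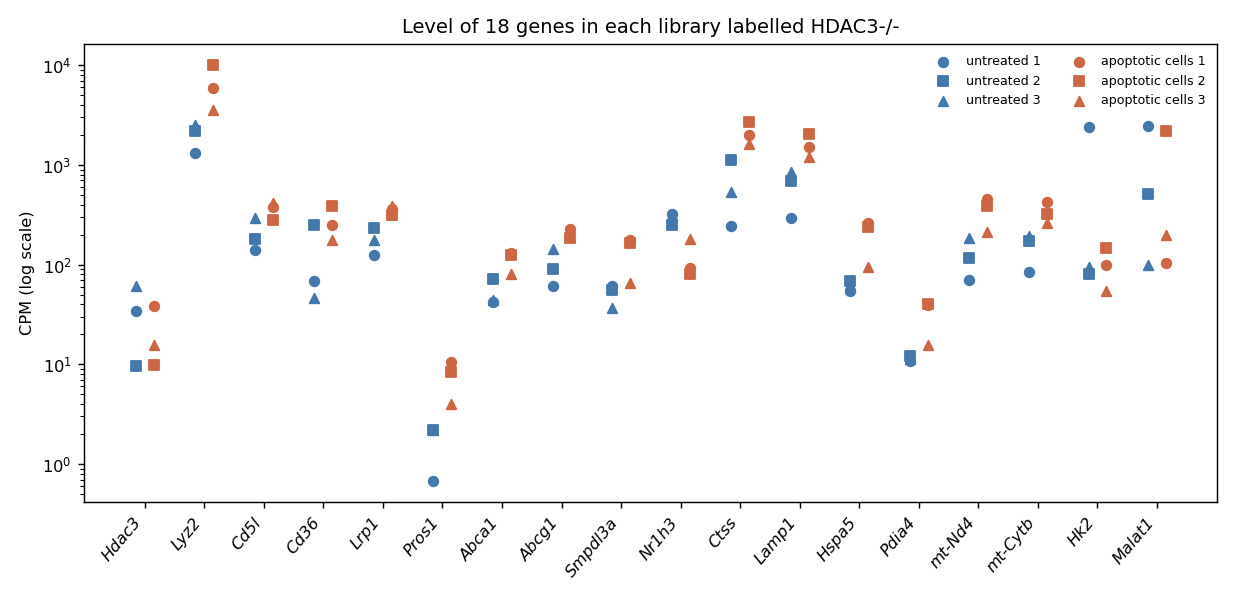
CPM on a log scale of 18 genes in each library labelled HDAC3-/-, with untreated libraries in blue and libraries with ACs in orange and the replicate number as the marker shape. The groups separate for Lyz2, Lrp1, Pros1, Abca1, Abcg1, Smpdl3a, Nr1h3, Ctss, Lamp1, Hspa5, Pdia4, mt-Nd4 and mt-Cytb, while Hk2 and Malat1 show a 1-library and a scattered pattern. None of the 18 differences passed the test.

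Cd5l encodes CD5L, a protein secreted by macrophages and a target of LXRs. The gene (ENSMUSG00000015854) lies on chromosome 3 of GRCm38 from 87357881 to 87371073. It had 139, 180 and 293 CPM untreated and 380, 280 and 420 CPM with ACs. The groups overlapped by AC replicate 2, which lay just under untreated replicate 3. The log2 fold change was 0.82 with an SE of 0.464 (adjusted p = 0.401), with a 95% interval of -0.15 to 1.79. Cd36, a scavenger receptor for oxidized lipids and dying cells, had 68.7, 251 and 46.6 CPM untreated and 252, 388 and 175 CPM with ACs. Its log2 fold change was 1.15 with an SE of 0.589 (adjusted p = 0.364), and its interval of -0.09 to 2.40 included 0 as that of Cd5l did.

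Of the receptors and bridging proteins of the TAM family, Axl, Mertk and Gas6 had overlapping groups, and Pros1 had separated groups. Axl had 25.9, 78.7 and 301 CPM untreated and 170, 73.2 and 239 CPM with ACs (log2 fold change 0.25, 95% interval -1.46 to 1.95). Mertk had 147, 30.2 and 26.8 CPM untreated and 52.2, 63.2 and 24.1 CPM with ACs (-0.54, interval -1.91 to 0.82). Gas6, the ligand of both, had 117, 181 and 695 CPM untreated and 527, 329 and 440 CPM with ACs (0.38, interval -0.84 to 1.60). For each of these 3 genes the highest library was untreated, and so was the lowest for Axl and Gas6. Pros1, which encodes protein S, had 0.669, 2.22 and 2.21 CPM untreated and 10.5, 8.33 and 4.03 CPM with ACs. All libraries with ACs lay above all untreated libraries for Pros1, at low levels, and the log2 fold change was 2.08 with an SE of 0.616 (adjusted p = 0.311). Mfge8, a bridging protein that binds integrins, reached 2660 CPM in untreated replicate 2 against 326 to 444 CPM in the other untreated libraries and 390 to 1350 CPM with ACs (log2 fold change -0.50, SE 0.777).

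Among other receptors, Lrp1, an endocytic receptor that binds calreticulin, had 124, 233 and 175 CPM untreated and 365, 314 and 384 CPM with ACs. The groups did not overlap, and the log2 fold change was 1.00 with an SE of 0.454 (adjusted p = 0.329). Thbs1, which encodes thrombospondin 1, had a log2 fold change of 1.50 with an SE of 0.633 (adjusted p = 0.317) with overlapping groups. Of 28 receptor and bridging genes 26 were tested, and 16 had a log2 fold change above 0, with a median of 0.29 against 0.10 for all genes. Without untreated replicate 1 this median was 0.05 against 0.20 for all genes, and without untreated replicate 3 it was 0.69 against 0.12. The 25 efferocytosis genes of the study, including Cd5l, were all tested. Of these, 14 had a value above 0 and the median was 0.18, which was 0.45 without untreated replicate 1, 0.01 without AC replicate 2 and 0.04 with the size factors of DESeq2. Their groups did not overlap for 1 gene with ACs higher, Lrp1, and for 3 with ACs lower, Jmjd6, Nr1h3 and Tnf, where 11.9% and 10.3% of all genes were separated in these directions. The 95% intervals left out 0 for 1 gene in each direction, Lrp1 and Nr1h3. Of all genes, 9.44% had an unadjusted p under 0.05 with ACs higher and 5.07% with ACs lower. The study chose the efferocytosis genes with its RNA-seq data, which include the libraries with ACs used here, so the list is not independent of them.

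**Figure D3:**
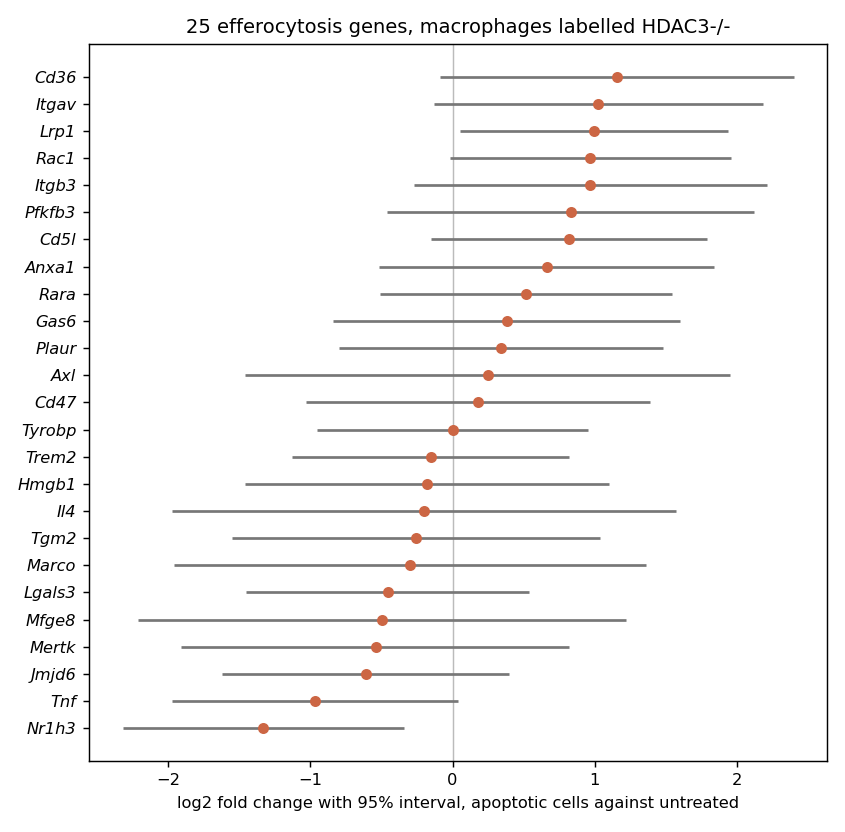
Log2 fold change with ACs against no treatment of 25 efferocytosis genes in macrophages labelled HDAC3-/-, with points for the estimates and lines for 95% intervals. The intervals of Lrp1 (0.05 to 1.94) and Nr1h3 (-2.32 to -0.34) leave out 0, and those of the other 23 genes include it.

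For engulfment, 24 of 25 genes of the actin machinery were tested, and 19 had a log2 fold change above 0, with a median of 0.36 (0.55 without untreated replicate 3). Dock1, an activator of Rac, had 2.45, 2.92 and 2.17 CPM untreated and 9.61, 7.07 and 4.27 CPM with ACs (log2 fold change 1.47, SE 0.567, adjusted p = 0.311). Cdc42, a small GTPase that shapes the phagocytic cup, had 210, 255 and 235 CPM untreated and 654, 600 and 294 CPM with ACs (1.14, SE 0.466). Both genes were separated between the groups, with AC replicate 3 nearest to the untreated libraries. Coro1a, a coronin of leukocytes that binds actin, had 1630, 1040 and 1000 CPM untreated and 340, 526 and 799 CPM with ACs (-1.14, SE 0.480). Rac1 had a log2 fold change of 0.97 with an SE of 0.477 (adjusted p = 0.354).

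For corpse processing, Rab7, the GTPase of late phagosomes, had 84.0, 157 and 127 CPM untreated and 461, 334 and 191 CPM with ACs (log2 fold change 1.42, SE 0.485). Pik3c3, the lipid kinase VPS34, had 6.02, 9.85 and 13.0 CPM untreated and 47.1, 26.9 and 18.0 CPM with ACs (1.66, SE 0.539). The groups did not overlap for either gene. Of the 21 phagosome and autophagy genes tested, 11 had a value above 0 and 10 below 0, with a median of 0.185. This median was -0.03 without untreated replicate 1 and -0.06 under the offset for GC content and length. Tfeb, a transcription factor that induces lysosomal genes, was lower in each library with ACs (107, 112 and 178 CPM) than in any untreated library (331, 263 and 234 CPM), with a log2 fold change of -1.06 with an SE of 0.456 (adjusted p = 0.317). Of the 30 lysosome genes tested, 19 had a value above 0 and the median was 0.29. Among them Ctss, which encodes cathepsin S, had 242, 1110 and 539 CPM untreated and 2020, 2720 and 1630 CPM with ACs (1.75, SE 0.542, adjusted p = 0.311). Lamp1, a protein of the lysosomal membrane, had 296, 685 and 853 CPM untreated and 1500, 2030 and 1190 CPM with ACs (1.36, SE 0.498). Both genes were higher in every library with ACs, and untreated replicate 1 was the lowest library. Without that replicate the median of the lysosome list was -0.02 and the log2 fold changes of Ctss and Lamp1 were 1.35 and 1.02.

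The genes that respond to cholesterol load had values of both signs. Abca1 had 42.4, 72.3 and 44.2 CPM untreated and 130, 124 and 79.9 CPM with ACs (log2 fold change 1.07, SE 0.471, adjusted p = 0.320). Abcg1 had 61.5, 90.3 and 145 CPM untreated and 229, 184 and 189 CPM with ACs (1.02, SE 0.469, adjusted p = 0.334). Smpdl3a, a phosphodiesterase gene induced by LXR, had 61.5, 55.1 and 36.6 CPM untreated and 177, 165 and 64.8 CPM with ACs (1.41, SE 0.500). Every library with ACs exceeded every untreated library for these 3 genes. Apoe, which encodes apolipoprotein E, had 7190, 23500 and 14100 CPM untreated and 18700, 64000 and 34300 CPM with ACs, with overlapping groups (1.39, SE 0.573, adjusted p = 0.315). Nr1h3, which encodes LXRα, went the other way, with 325, 248 and 317 CPM untreated and 92.9, 79.9 and 181 CPM with ACs (-1.33, SE 0.475, adjusted p = 0.311). Of the 20 LXR genes tested, 11 had a value above 0, and the median was 0.22. It was 0.585 without untreated replicate 1 and 0.05 without untreated replicate 3.

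Cholesterol synthesis, which cells with ample sterol normally reduce, had a median of 0.66 over 22 tested genes, 16 of them above 0. Msmo1, a sterol C4-methyl oxidase, had 9.59, 15.7 and 15.2 CPM untreated and 40.7, 46.7 and 22.4 CPM with ACs (log2 fold change 1.43, SE 0.507, adjusted p = 0.311). The groups did not overlap for 6 genes of the list with ACs higher and for 2 with ACs lower, beside 11.9% and 10.3% of all genes. Without untreated replicate 1 the median was 0.33. Under an offset that removed trends with GC content and length, the median was 0.17.

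**Figure D4:**
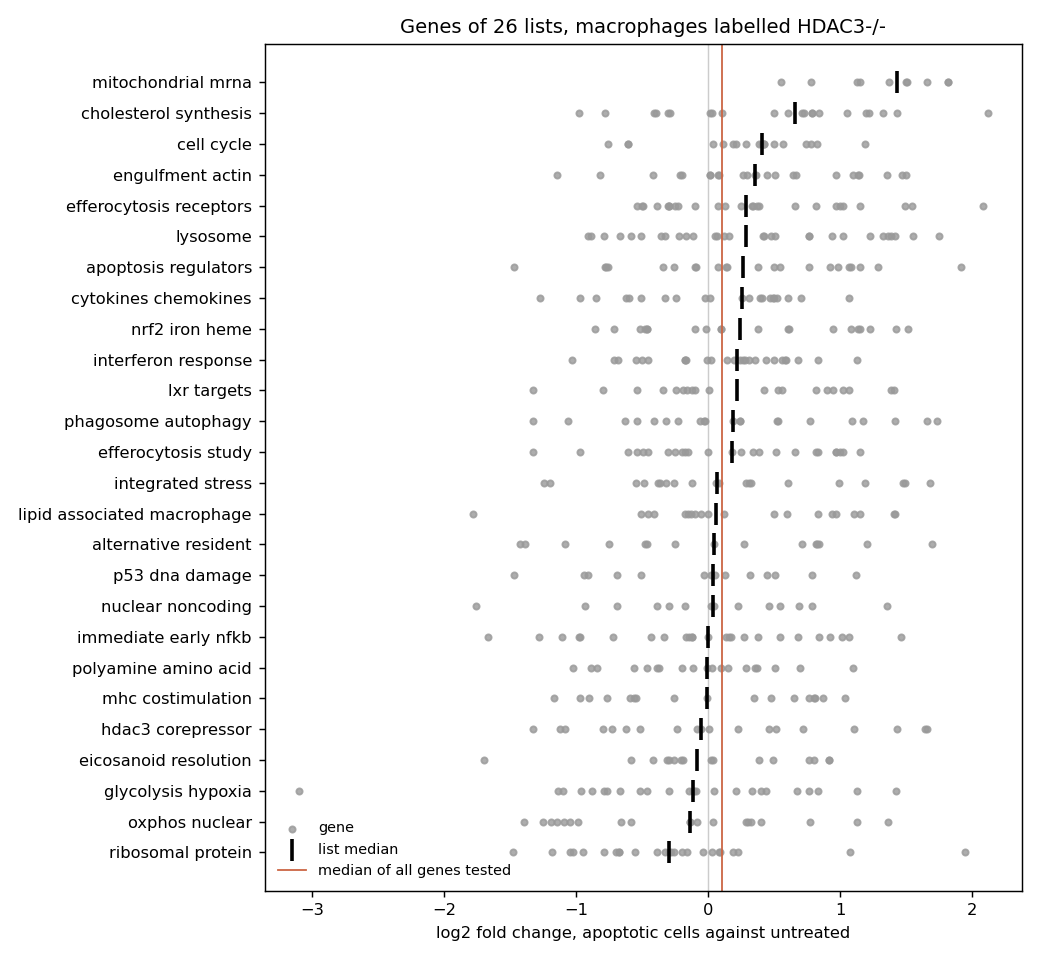
Log2 fold change of each tested gene of 26 lists (grey points), the median of each list (black marks) and the median of all genes tested (orange line). The medians run from -0.30 for ribosomal proteins to 1.43 for the mitochondrially encoded mRNAs, and single genes reach -3.10 (Hk2) and 2.12 (Hsd17b7).

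The mitochondrially encoded mRNAs had the highest median, 1.43, and all 10 tested had a log2 fold change above 0. mt-Nd4, a subunit of complex I, had 70.2, 117 and 184 CPM untreated and 457, 386 and 213 CPM with ACs (1.51, SE 0.499, adjusted p = 0.311). mt-Cytb, the cytochrome b of complex III, had 84.9, 174 and 194 CPM untreated and 427, 319 and 259 CPM with ACs (1.15, SE 0.476, adjusted p = 0.315). The groups did not overlap for these 2 genes, nor for mt-Nd5 and mt-Co3, with ACs higher for 4 of 10 genes beside 11.9% of all genes. Of these, mt-Co3 was at very low levels, with 0, 0.523 and 0.409 CPM untreated and 0.776, 2.6 and 0.593 CPM with ACs. mt-Co1 had 488, 2130 and 2150 CPM untreated and 6610, 1610 and 5240 CPM with ACs, so AC replicate 2 lay below 2 untreated libraries (1.50, SE 0.620). The share of counts on mitochondrial genes was 0.272%, 0.349% and 0.434% in the untreated libraries and 1.19%, 0.493% and 0.689% with ACs. The other 3 genes of the list fell below the filter, and near-identical nuclear copies of mitochondrial genes can share their reads, so their levels are uncertain. In every fit with a library left out the list median stayed between 1.04 and 1.40.

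The nuclear genes of oxidative phosphorylation had a median of -0.14 over 20 tested genes, and their groups did not overlap for 8 genes with ACs lower and for 0 with ACs higher, beside 10.3% and 11.9% of all genes. The median was -0.47 without AC replicate 2, -0.41 without untreated replicate 1, -0.39 without AC replicate 3, 0.17 without untreated replicate 3 and -0.49 under the offset for GC content and length. Uqcrc1, a core protein of complex III, had 708, 559 and 483 CPM untreated and 195, 198 and 372 CPM with ACs (log2 fold change -1.19, SE 0.466, adjusted p = 0.311). Ndufb8 of complex I had 544, 285 and 273 CPM untreated and 102, 175 and 186 CPM with ACs (-1.25, SE 0.479). Ndufs1 and Uqcrfs1, of the same complexes, had values of 1.36 and 1.13, so the list held both directions. Ribosomal proteins had a median of -0.30, with 18 of 25 below 0. It was -0.53 without AC replicate 2, -0.16 without untreated replicate 1 and -0.10 with library totals. The glycolysis list had a median of -0.12, which was -0.41 under that offset, -0.57 without AC replicate 3 and 0.02 without untreated replicate 2. In this list Tpi1, the triosephosphate isomerase, had 1250, 1270 and 827 CPM untreated and 391, 409 and 720 CPM with ACs (-1.14, SE 0.468, adjusted p = 0.313). Hk2, hexokinase 2, had the largest negative value of the lists (-3.10, SE 1.31), and it rested on untreated replicate 1. It had 2410 CPM there, 81.4 and 95.1 CPM in the other untreated libraries, and 100, 146 and 54.9 CPM with ACs. Without that library the value was 0.17.

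Among the genes of protein folding stress, Hspa5, the chaperone BiP of the endoplasmic reticulum, had 54.2, 68.6 and 62.2 CPM untreated and 263, 239 and 93.7 CPM with ACs. The log2 fold change was 1.69 with an SE of 0.492 (adjusted p = 0.311). Pdia4, a disulfide isomerase of the same compartment, had 10.9, 12.2 and 11.3 CPM untreated and 39.6, 40.7 and 15.5 CPM with ACs (1.48, SE 0.521). In both genes the untreated libraries lay close together, and AC replicate 3 stood between them and the other libraries with ACs. Calr, which encodes calreticulin, had 606, 823 and 1300 CPM untreated and 765, 894 and 1190 CPM with ACs (0.06, SE 0.467), and Herpud1, another gene of this response, had a value of -0.55 (SE 0.535). The list of 20 stress genes had a median of 0.07 (-0.17 without AC replicate 3 and 0.16 without untreated replicate 2). Promoters of this list were searched for the endoplasmic reticulum stress response element, CCAAT and CCACG separated by 9 bases, on either strand, since this element is known from promoters of endoplasmic reticulum chaperones. RefSeq promoter windows on GRCm38.p6, from 250 bases before to 50 after a gene's start, matched 18 of the 20 genes. Of the list, sites of the element were recorded for Hspa5 and Calr. Whether every other matched gene of the list lacks it was not established. Of all 32851 windows, 39 (0.119%) held the element, and the list was not compared with this share. The matches are a description of these windows, and the genes' values were known before the search. The sites are shown with 10 bases on each side, with the fixed letters of the element in capitals. The Hspa5 site is at chr2:34772015-34772053 on the forward strand, and the Calr site is at chr8:84847065-84847103, read along the reverse strand of the chromosome with the element on its opposite strand.
Hspa5: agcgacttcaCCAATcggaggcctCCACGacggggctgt
Calr: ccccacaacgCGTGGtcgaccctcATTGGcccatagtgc

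The inflammatory and regulatory lists had medians between -0.08 (eicosanoids and resolution) and 0.26 (cytokines and chemokines, and apoptosis regulators). Under the offset for GC content and length the median of the cytokine list was -0.11, and that of the interferon list went from 0.22 to -0.18. The median of the apoptosis regulators was 0.04 under the same offset and 0.42 without AC replicate 3. Without untreated replicate 3 the median was 0.65 for the interferon list and also 0.65 for the list of MHC and costimulation, which was -0.01 with all libraries. The eicosanoid median was 0.35 without untreated replicate 2 and -0.28 without untreated replicate 1. Tnf, the cytokine TNF-α, had 51.3, 36.8 and 52.6 CPM untreated and 16.3, 27.4 and 28.2 CPM with ACs (log2 fold change -0.97, SE 0.481, adjusted p = 0.358). Tgfb1, the anti-inflammatory cytokine TGF-β1, had 1630, 1980 and 1440 CPM untreated and 553, 341 and 1190 CPM with ACs (-1.27, SE 0.509, adjusted p = 0.311). Both cytokine genes were lower in every library with ACs. Mrc1, the mannose receptor of alternatively activated macrophages, had 21.8, 38.0 and 22.8 CPM untreated and 114, 109 and 44.5 CPM with ACs (1.69, SE 0.512), while Clec10a, another lectin of such cells, had a value of -1.43 (SE 0.552). Oas1a, an interferon-induced gene, had a value of -1.03 (SE 0.478). Jund and Jun, both members of the AP-1 family, had values of -1.67 (SE 0.513) and 1.07 (SE 0.454), and the groups did not overlap for either. Mcl1, an inhibitor of apoptosis, had 240, 225 and 247 CPM untreated and 557, 627 and 305 CPM with ACs (1.07, SE 0.459). Txnrd1, a reductase of the NRF2 response, had a value of 1.52 (SE 0.516). Among genes of the HDAC3 corepressor complexes, Tbl1xr1, a subunit of the NCoR complex, had a value of 1.66 (SE 0.587). Bcl6, a repressor that recruits this complex, had a value of 1.65 (SE 0.535). Of the 19 tested genes of that list, 9 had a value above 0 and 10 below 0, with a median of -0.05. This median was -0.29 without untreated replicate 1 and 0.20 without AC replicate 2.

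In the remaining lists, Hsph1, a cytosolic chaperone, had 12.5, 17.7 and 14.8 CPM untreated and 70.1, 29.7 and 27.6 CPM with ACs (log2 fold change 1.50, SE 0.519). Gsr, the glutathione reductase, had 9.59, 8.11 and 6.59 CPM untreated and 19.7, 34.0 and 11.0 CPM with ACs (1.42, SE 0.540). Both were separated between the groups. The p53 target genes Phlda3 and Sesn1 had values of opposite sign, -1.47 (SE 0.502) and 1.12 (SE 0.492). Ripk1, a kinase of cell death signalling, had 4.68, 8.98 and 9.99 CPM untreated and 62.5, 15.3 and 12.6 CPM with ACs (1.92, SE 0.627), and AC replicate 1 stood above the rest. In the polyamine and amino acid list, Srm, the spermidine synthase, had 43.2, 43.2 and 38.8 CPM untreated and 16.5, 15.8 and 29.1 CPM with ACs (-1.03, SE 0.484). In the eicosanoid list Ptges2, a prostaglandin E synthase, had 118, 92.3 and 55.1 CPM untreated and 20.4, 19.3 and 42.1 CPM with ACs (-1.70, SE 0.512). The costimulatory receptor gene Cd40 had 8.69, 7.98 and 20.3 CPM untreated and 5.21, 3.70 and 7.65 CPM with ACs (-1.17, SE 0.559). Srm, Ptges2 and Cd40 were lower in every library with ACs than in any untreated library. Pla2g7, a phospholipase that degrades platelet-activating factor, went the other way in the eicosanoid list, with 35.7, 112 and 133 CPM untreated and 199, 173 and 159 CPM with ACs (0.91, SE 0.503). Cell cycle genes had a median of 0.41, with 16 of 19 above 0, and Rrm2, a ribonucleotide reductase subunit, had 2.68, 4.49 and 2.21 CPM untreated and 11.7, 4.10 and 5.70 CPM with ACs (1.19, SE 0.588). The median of the cell cycle list was -0.01 under the offset for GC content and length, and 0.15 without AC replicate 1. The macrophage markers had a median of -0.20, with 7 of 12 genes below 0 (0.15 without untreated replicate 3, and 0 with library totals). Among them Itgam, the integrin chain CD11b, had 37.0, 33.5 and 18.4 CPM untreated and 76.3, 212 and 43.1 CPM with ACs (1.90, SE 0.576). The lipid-associated macrophage list had 11 of 20 genes above 0 and a median of 0.06 (0.48 without untreated replicate 2, and -0.06 with the size factors of DESeq2), and its smallest unadjusted p belonged to Cpt1a, the carnitine palmitoyltransferase of fatty acid oxidation (1.41, SE 0.656, overlapping groups). Pparg, a nuclear receptor of lipid metabolism, had 3.12, 6.02 and 5.48 CPM untreated and 14.8, 8.49 and 8.66 CPM with ACs (1.11, SE 0.539).

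Granulocyte and fibroblast markers stood near these results and their part in them was not tested. Granulocyte markers, which immature marrow cells also express, were below 0 for 11 of 12 genes, with a median of -0.84 and summed levels of 402 to 1140 CPM untreated and 489 to 774 CPM with ACs. Elane, the neutrophil elastase gene, had 82.9, 41.7 and 15.6 CPM untreated and 10.3, 7.48 and 21.2 CPM with ACs (-1.84, SE 0.611), and untreated replicate 1 was the highest for most genes of this kind. Without untreated replicate 1 the list median was -0.32. Fibroblast markers summed to 64.3 to 103 CPM untreated and 73.7 to 226 CPM with ACs. Of the 8 tested, 5 had a log2 fold change above 0 and 3 below 0, with a median of 0.81 (0.08 without AC replicate 1). Col3a1, a fibrillar collagen, had 1.56, 3.44 and 2.54 CPM untreated and 15.2, 4.55 and 5.58 CPM with ACs (1.71, SE 0.610). Lyz2, which encodes lysozyme and whose locus carries the Cre, had 1310, 2180 and 2540 CPM untreated and 5910, 10100 and 3570 CPM with ACs. The groups did not overlap (1.70, SE 0.519, adjusted p = 0.311), and the gene (ENSMUSG00000069516) lies on chromosome 10 from 117277334 to 117282274. Malat1, a long noncoding RNA of the nucleus, had 2460, 515 and 99.0 CPM untreated and 104, 2200 and 200 CPM with ACs. The high and low libraries were found in both groups.

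The differences followed gene length and GC content. Over 4 equal groups of the tested genes by exonic length, the median log2 fold change was -0.33, 0.05, 0.24 and 0.44 from the shortest to the longest. Over 4 equal groups by GC content it was 0.49, 0.57, -0.02 and -0.51 from the lowest to the highest. Single libraries differed in the GC trend. For each library, log2 CPM less the gene's mean over the libraries labelled HDAC3-/- was correlated with GC content across genes. The Spearman correlations were 0.101, 0.543 and 0.615 in the untreated libraries and -0.074, -0.432 and 0.524 in those with ACs. Genes with an unadjusted p under 0.05 and a negative value made up 10.8% of the shortest group and 1.25% of the longest. With an offset for both properties, 1366 genes had an unadjusted p under 0.05 and 0 were called. Under this offset the log2 fold change was 0.93 for Hspa5, 1.34 for Lyz2 and -1.04 for Dcxr, and the mitochondrially encoded mRNAs had a median of 1.70. The part of these properties in the differences between the groups was not tested further.

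**Figure D5:**
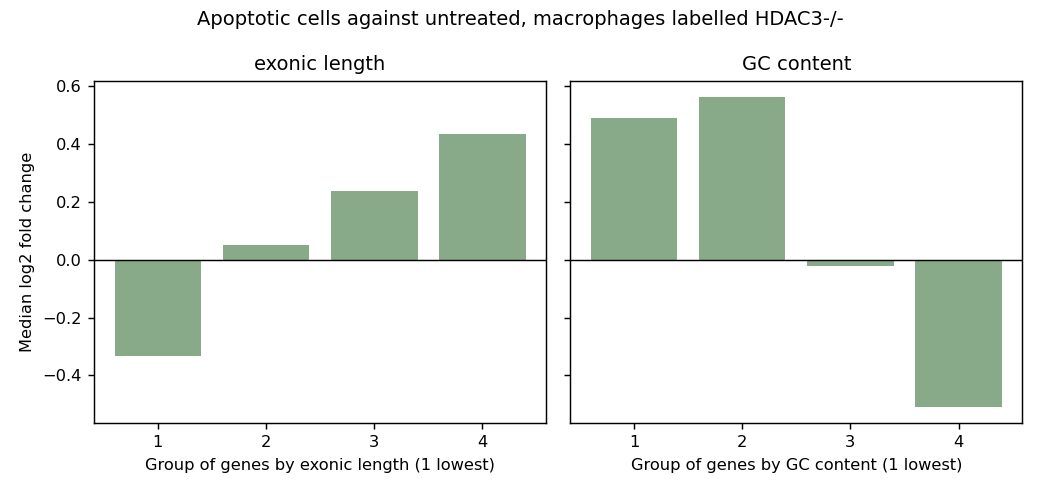
Median log2 fold change with ACs against no treatment in 4 equal groups of the tested genes, by exonic length on the left and GC content on the right. It runs from -0.33 to 0.44 with rising length, and from 0.49 in the group of lowest GC content to -0.51 in the highest.

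The same libraries with ACs were compared with NACs, which share the coculture but not the apoptosis. Here 904 of 12244 genes were called (7.38%), with ACs higher for 325 (2.65%) and lower for 579 (4.73%). This count was 0 without AC replicate 1 and 3013 without AC replicate 2. Among genes at 10 CPM or more in the higher group and with separated groups, the largest changes were those of the collagen gene Col1a2 (log2 fold change 2.48), Itgax, the integrin chain CD11c (2.47, adjusted p = 0.00101), and Cavin1, a coat protein of caveolae (2.20), in one direction, and of Pdcd10 (-3.78), the C-type lectin gene Clec4e (-3.19) and Samd9l (-3.14) in the other. Against untreated macrophages these genes had 1.03, 0.12, 1.84, -2.20, -0.07 and -0.48. Of the 25 efferocytosis genes, 4 rose and 1 fell. In the same comparison 4 of 8 tested fibroblast markers rose and 0 fell, with a median log2 fold change of 2.03, and their part in the other results was not tested. The log2 fold change was 1.75 for Cd5l (adjusted p = 0.0181), 1.81 for Axl (adjusted p = 0.0183), 1.75 for Itgb3, the integrin β3 chain (adjusted p = 0.0174), 1.60 for Mfge8 (adjusted p = 0.0278) and -1.88 for the scavenger receptor Marco (adjusted p = 0.0382). Against untreated macrophages the same 5 genes had 0.82, 0.25, 0.97, -0.50 and -0.30, none of them called. For the lysosome, Ctss (1.58, adjusted p = 0.0160) and Ctsl, which encodes cathepsin L (1.79, adjusted p = 0.0174), rose against NACs, and their values against untreated macrophages were 1.75 and 1.38. Abcg1 rose against NACs (1.42, adjusted p = 0.0200) and Abca1 did not pass (-0.34, adjusted p = 0.616). Hspa5 had 0.49 (adjusted p = 0.457), Lyz2 -0.36 (adjusted p = 0.651) and Pros1 0.04 (adjusted p = 0.971) against NACs. NACs against no treatment called 794 of 12143 genes (6.54%), 753 higher (6.2%) and 41 lower (0.338%), and gave 1.24, 2.12 and 2.06 for these 3 genes. The count was 0 with the size factors of DESeq2, with a replicate block and without any 1 of 5 libraries (untreated replicates 2 and 3, and each replicate with NACs), and without untreated replicate 1 it was 2713 higher and 1728 lower. Against NACs, 0 of 24 engulfment genes rose and 1 fell, and 0 of 21 phagosome and autophagy genes rose and 1 fell. Of 30 lysosome genes 4 rose and 0 fell. These counts stand beside 2.65% and 4.73% of all genes. Rab7, Pik3c3, Cdc42 and Cd36 had 0.12, 0.03, -0.77 and -0.02 against NACs, none of them called. With NACs against no treatment these 4 genes had 1.34, 1.67, 1.96 and 1.23, with Pik3c3 and Cdc42 called. The comparisons share libraries, so their values are set side by side without a test between them.

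Whether the effect of ACs differed between genotype labels was tested as an interaction over 12 libraries. Of 13225 genes 0 were called by edgeR's quasi-likelihood test (0%), 3187 (24.1%) had an unadjusted p under 0.05, and the smallest adjusted p was 0.112. The test of DESeq2 called 1249. With a library left out, edgeR's test called 1100 without AC replicate 3 of the label HDAC3-/-. It called 471 without untreated replicate 3 of the label wild type, and 0 without any other library. In macrophages labelled wild type, 0 of 12199 genes (0%) were called with ACs against no treatment, 1551 (12.7%) had an unadjusted p under 0.05, and DESeq2 called 4. With a replicate block 44 genes were called, 25 higher and 19 lower. Without AC replicate 2 of that label 493 genes had an unadjusted p under 0.05, and without AC replicate 1 it was 3454. Lyz2 had a log2 fold change of -1.20 under that label against 1.70 under the label HDAC3-/-, an interaction of 2.64 (adjusted p = 0.112). Nr1h3 had 0.63 against -1.33 (interaction -2.13, adjusted p = 0.116), and Cd5l had -0.31 against 0.82 (interaction 0.88, adjusted p = 0.639). The smallest unadjusted p values of the interaction belonged to genes such as Anapc4 (2.45), Pros1 (2.62) and Elovl5, a fatty acid elongase (2.37), in one direction, and 9430060I03Rik (-4.38), Zfp771 (-3.13) and Hist1h4c, a histone H4 gene (-3.51), in the other.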

How the data were processed

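RNA was sequenced from BMDMs in 18 libraries, and per the labels the reads were trimmed with Trimmomatic 0.36, aligned with STAR 2.5.2b to GRCm38 and counted with featureCounts of Subread 1.5.2. The deposited values are whole counts per gene, with no normalization by the authors. The paper states paired reads from a NEBNext Ultra II library. The handling of strand and of reads with several matches is not given in the sources used here. Groups were taken from sample titles and each group held 3 biological replicates. The methods give 3 animals per group, and whether an animal served several treatments is not stated.

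Libraries of a comparison were fitted apart from the others with edgeR 4.0.16 under R 4.3.3 (filterByExpr with a minimum count of 10 and a minimum total count of 15, TMM scaling, robust glmQLFit and glmQLFTest), with Benjamini-Hochberg adjustment over all genes tested and a threshold of 0.05. The 95% intervals use the degrees of freedom of that test. Members and the 34 lists (26 of function, 8 of markers) were chosen with earlier results of these data known. Named genes were Hdac3, Lyz2, Cd5l, the 5 with the smallest unadjusted p in each direction (none being called), and up to 2 of each list by the same order or, for other comparisons, 5 in each direction. Further genes were named for their role or value after their values were seen. Of 49315 genes in the files 48970 had a symbol and a GC content from GENCODE M21 transcripts, and exonic length was that of the files. Alternatives were DESeq2 1.42.0 (its size factors, and its Wald test with and without independent filtering), voom of limma 3.58.1, other filters, library totals, all 18 libraries in one fit, a GC and length offset (mgcv 1.9.3), a replicate block, and each library left out. A few genes that the rule names are not reported here. Scripts were tested on simulated data. Intervals and limits from a count of 0 cover counting error only. Human reads were not separated from mouse reads here.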

Additional observations from a re-analysis of the deposited data

How the results depend on the processing

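Each group held 3 libraries, and untreated replicate 1 was shallow. Of 17 alternatives for ACs against no treatment, counts of called genes other than 0 came from DESeq2's Wald test (13), that test without its independent filter (3, an alternative chosen after seeing the data), no filter on low counts (30), and the fits that left out a library, where counts ran from 0 to 16, the highest without untreated replicate 1. The median of all genes moved from 0.10 to -0.01 with the size factors of DESeq2 and to 0.32 with library totals. ACs against NACs gave 1396 genes with DESeq2's Wald test and 1427 with a replicate block, and 0 (without AC replicate 1) to 3013 (without AC replicate 2) with a library left out. NACs against no treatment gave 794 genes (753 higher), and 0 with the size factors of DESeq2, 2063 (1260 higher) with its Wald test, 1479 (1185 higher) with no filter and 0 with a replicate block. With a library left out they numbered 0 to 4441, the highest without untreated replicate 1. In macrophages labelled wild type the counts were 4 (Wald test), 13 (no filter) and 44 (replicate block). The interaction gave 1249 genes (Wald test), 140 (no filter), and 0 to 1100 with a library left out, the highest without AC replicate 3 of the label HDAC3-/-, and 471 without untreated replicate 3 of the label wild type. The cause of these changes was not tested.

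The replicate block changed no call for ACs against no treatment (0 genes). Deviations of same-numbered libraries from their group means correlated at -0.276, -0.254 and 0.295, so the numbers were not taken to pair the samples. Of the 34 lists, 1 had a called gene under an alternative, the ribosomal proteins, with Rpl4. Among 95 genes named that had a value in this comparison, Hba-a1 not counted, 5 were called under an alternative: Rpl4, Dcxr, Gm7008, AI480526 and Mfap4. Cldn18, Sec14l3, Eln and Myh6, which fell below its filter on low counts, were called without untreated replicate 1, and the first 3 of them also with no filter and without AC replicate 2.

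The sign of the log2 fold change was kept by 83 of the 95 named genes under every alternative that gave a value. For 12 genes it turned. With the size factors of DESeq2 it was -0.041 for Calr, -0.054 for Csf1r and -0.001 for Itgax. With its Wald test, with or without the independent filter, it was -0.023 for Calr and -0.048 for Csf1r, and with all 18 libraries in one fit -0.071 and -0.096. With the GC and length offset it was -0.205 for Calr, -0.264 for Itgax and 0.135 for Marco, and with the replicate block added to it -0.215 for Calr, 0.137 for Mfge8 and 0.805 for Marco. With a replicate block alone it was 0.055 for Malat1 and 0.495 for Marco, and with limma-voom 0.294 for Marco. For Clec4e it was 0.061 with no filter and 0.203 with library totals. With each library left out in turn, the range was -0.250 to 1.601 for Axl, -0.173 to 0.400 for Calr, -0.605 to 0.301 for Clec4e, -0.401 to 0.608 for Csf1r, -0.033 to 1.527 for Gas6, -3.619 to 0.173 for Hk2, -0.386 to 1.685 for Itgax, -2.771 to 1.433 for Malat1, -0.774 to 1.649 for Marco, -0.914 to 0.694 for Mertk, -1.089 to 1.090 for Mfge8 and -0.758 to 0.060 for Samd9l. The cause of these changes of sign was not tested.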
